A study of Homo sapiens with 9 samples.

Results

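The unfolded protein response and the integrated stress response were followed through 44 genes in MDA-MB-468, a long-established line grown from a human breast adenocarcinoma. The 44 were taken by gene symbol from a table of 56809 genes, and every listed symbol had exactly 1 row. They fall into a chaperone arm of 22 genes, which acts in or reports on the endoplasmic reticulum, and an ATF4 arm of 22 genes. The cells had been infected with the pSicoR vector without an insert (pSicoR_empty, the control) or with 1 of 2 short hairpins, shLMO2-1 and shLMO2-2. RNA of each group was sequenced in 3 libraries, so that 9 libraries of 1 cell line entered the comparisons. Both hairpins carry the name of LMO2, a transcriptional cofactor that binds no DNA itself. The controls carry the vector without a hairpin, so what any hairpin does and what a loss of LMO2 does cannot be told apart. The labels name no harvest time and do not say whether the 3 libraries of a group came from separate cultures. The p-values therefore measure only the spread between these libraries, which may be technical.

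The endoplasmic reticulum folds secreted and membrane proteins. When unfolded proteins gather there, 3 sensors in its membrane respond: IRE1 (gene ERN1), ATF6 and PERK (gene EIF2AK3). IRE1 splices the RNA of XBP1 into the form that encodes an active factor, ATF6 is cut to release a factor, and both factors switch on chaperones and the degradation machinery. PERK phosphorylates the translation factor eIF2, as do the kinases PKR (EIF2AK2) and GCN2 (EIF2AK4) under other stresses. This lowers translation in general but raises that of ATF4, a factor that drives genes of amino acid synthesis and uptake and, under lasting stress, DDIT3 (CHOP). XBP1 splicing, ATF6 cleavage and ATF4 translation do not appear in RNA summed by gene, so the values below are RNA levels only.

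Levels are in CPM, the count of a gene scaled to its library's total over the tested genes times a TMM scaling factor. The factors were 1.01 to 1.04 in controls, 0.980 to 1.01 with shLMO2-1 and 0.966 to 1.00 with shLMO2-2. Per-library values are given in the order of replicates 1, 2 and 3. Library totals lay between 15494486 and 23069456 counts. LMO2 itself rested on 4, 35 and 19 counts in the controls and on 1 to 6 counts in the hairpin libraries, so control replicate 1 lay among the hairpin libraries. The line's epithelial identity was seen in all libraries: 8 mammary epithelial markers summed to 14013 to 14821 CPM in controls, 16124 to 17238 with shLMO2-1 and 15606 to 17613 with shLMO2-2. All 6 hairpin libraries lay above the controls in this sum. EGFR, the most abundant of the 8, had means of 5471 CPM in controls, 7507 with shLMO2-1 and 5985 with shLMO2-2, so the sum depends on it in part. The part of the shift in this sum in the results below was not tested. Sums of 4 markers each stayed at or under 6.62 CPM for endothelial, 3.69 CPM for immune and 17.1 CPM for fibroblast genes, with CD3E and COL3A1 at 0 in all 9. In bulk RNA, fewer cells of a type and less RNA per cell cannot be told apart.

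Few genes of either arm moved past the test with either hairpin. Calls were made where edgeR's quasi-likelihood test gave an adjusted p under 0.05 over all 14709 tested genes, and 43 of the 44 genes were tested. The exception, VEGFD, failed the filter on low counts. With shLMO2-1, 2 of 22 chaperone arm genes and 2 of 21 tested ATF4 arm genes were called, where 8.42% of all tested genes were (4.54% higher and 3.88% lower). With shLMO2-2 the counts were 0 of 22 and 4 of 21, where 8.97% of all genes were called (4.94% higher and 4.04% lower). At an unadjusted p under 0.05, 9 chaperone arm and 7 ATF4 arm genes passed with shLMO2-1, as did 3519 of all 14709 tested genes. With shLMO2-2, 5 and 10 passed, as did 3667 of all tested genes, and in the mean of both hairpins 6 and 8, as did 4121. Of the 5 chaperone arm genes with shLMO2-2, DESeq2 called 2 at an adjusted p under 0.05, and 1837 of all tested genes. In the mean of both hairpins, set against control, 1 and 4 genes were called, where 12.4% of all genes were. Single libraries moved these small counts, and also the calls over all tested genes. With all 9 libraries the latter were 1239 with shLMO2-1, 1320 with shLMO2-2 and 1823 in the mean. Leaving out 1 library gave 546 to 1397, 494 to 1243 and 947 to 1592. In the chaperone arm the shLMO2-1 count fell to 1 without control replicate 2, shLMO2-1 replicate 3 or shLMO2-2 replicate 2 or 3, and to 0 without shLMO2-1 replicate 2, and the mean gave 2 genes without control replicate 2 and 0 without control replicate 3. In the ATF4 arm the shLMO2-1 count fell to 1 without control replicate 3 or any 1 hairpin library. The shLMO2-2 count fell to 2 without control replicate 3, shLMO2-1 replicate 1 or 2 or any 1 shLMO2-2 library. The mean gave 7 genes without control replicate 2, and 2 without control replicate 3 or shLMO2-2 replicate 2.

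The median of the chaperone arm lay close to that of all tested genes. Its median log2 fold change was −0.02 with shLMO2-1 and 0.00 with shLMO2-2, and the median over all tested genes was 0.00 and 0.00. The 95% interval of the fold change lay within 1.5-fold either way for 22 of 22 genes with shLMO2-1 and for 19 of 22 with shLMO2-2. The ATF4 arm had medians of 0.10 and 0.06, and its intervals lay within 1.5-fold for 19 and 18 of 21 genes. Across both arms 7 genes were called in at least 1 of these comparisons: PDIA4 and XBP1 of the chaperone arm, and ATF4, PSAT1, PSPH, CTH and SLC7A5 of the ATF4 arm.

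**Figure D1:**
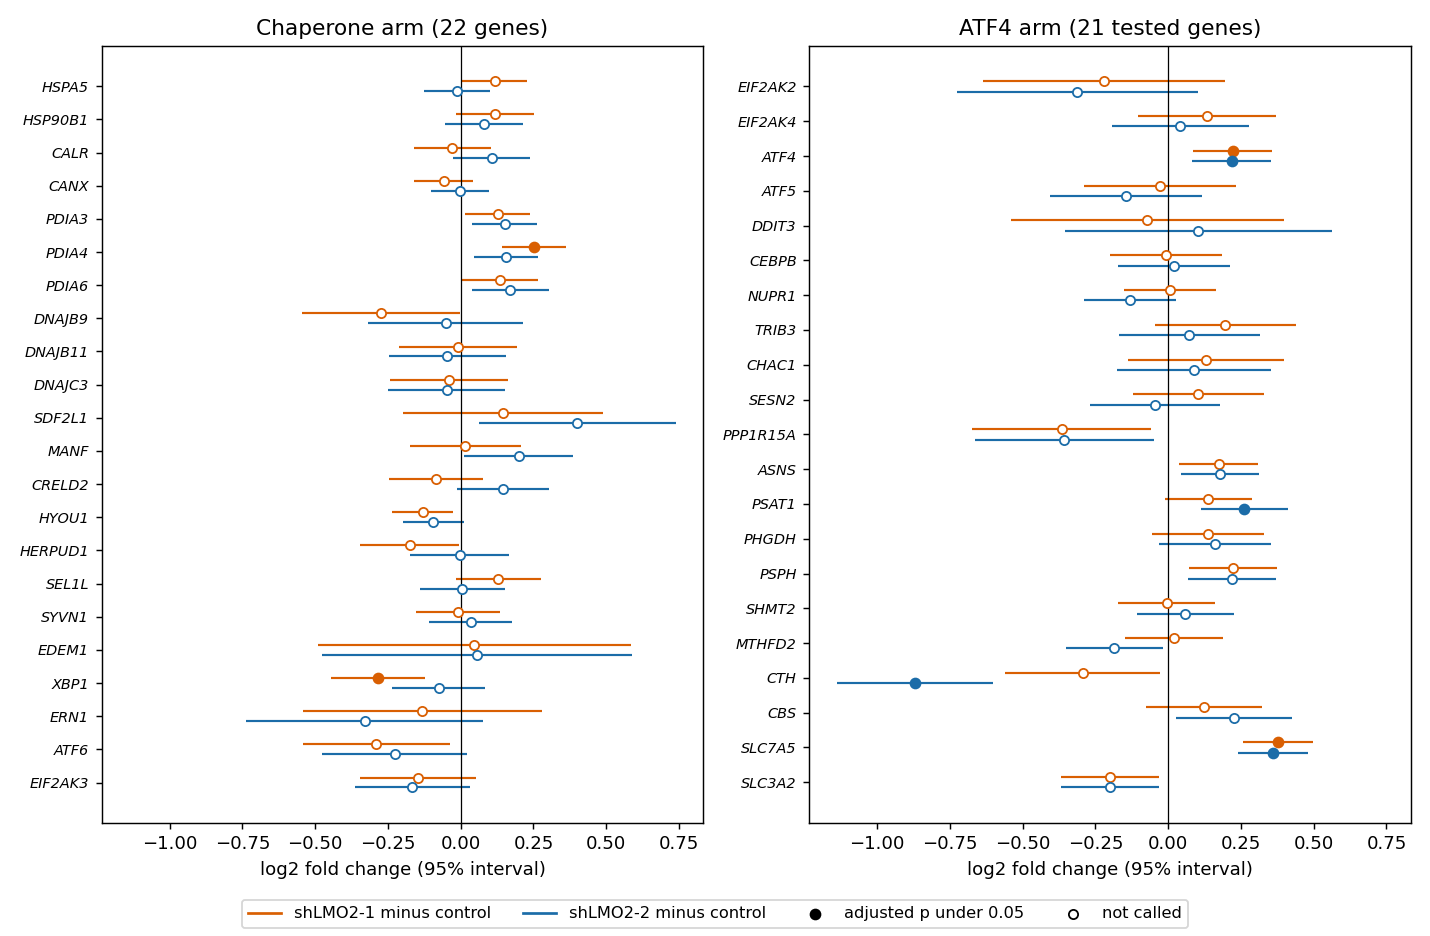
Log2 fold change (x axis) of each tested gene of the chaperone arm (left) and the ATF4 arm (right) with its 95% interval, for shLMO2-1 minus control (orange) and shLMO2-2 minus control (blue), each from 3 libraries a group. Filled points passed an adjusted p of 0.05. CTH with shLMO2-2 lies farthest from 0, at −0.87, and most of the chaperone arm lies within 0.25 of 0.

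The promoters show which of these genes carry the sequence that the factors of the unfolded protein response are known to read. The ER stress response element (ERSE, CCAAT and CCACG with 9 bases between them) and the shorter ERSE-II (ATTGG and CCACG with 1 base between them) are bound by ATF6 and spliced XBP1 together with the factor NF-Y. Each was searched on both strands of the RefSeq promoter window (GRCh38.p14), which runs from 250 bases before to 50 bases after a transcription start. Windows were found for 40 of the 44 genes. They were not found for SHMT2, PDIA3, NUPR1 and PSPH. ERSE lay in the windows of 7 of 21 chaperone arm genes and of 0 of 19 ATF4 arm genes. Over all 27305 genes with a window the share was 0.0916% (0.0769% of all 35116 windows). ERSE-II lay in those of 3 chaperone arm genes and of 0 ATF4 arm genes, and of 0.0696% of all genes (0.0541% of all windows). The matches with 20 bases on either side are printed because the chaperone arm is best known for this kind of control. Capitals mark the element, read 5′ to 3′ on the gene's strand, and an element that starts with CGTGG lies on the other strand.
HSPA5 (chr9:125241371-125241429, minus strand): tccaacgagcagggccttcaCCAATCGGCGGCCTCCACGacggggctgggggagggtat
HSP90B1 (chr12:103930196-103930254, plus strand): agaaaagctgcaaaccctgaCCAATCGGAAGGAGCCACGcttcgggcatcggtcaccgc
CALR (chr19:12938364-12938422, plus strand): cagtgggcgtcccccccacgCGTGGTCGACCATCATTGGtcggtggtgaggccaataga
CANX (chr5:179698758-179698816, plus strand): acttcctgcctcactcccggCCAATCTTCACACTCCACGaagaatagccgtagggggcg
PDIA6 (chr2:10812833-10812891, minus strand): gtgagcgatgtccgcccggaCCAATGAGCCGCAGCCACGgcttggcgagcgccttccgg
CRELD2 (chr22:49918534-49918592, plus strand): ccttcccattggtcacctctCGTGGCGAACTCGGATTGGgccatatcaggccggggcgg
XBP1 (chr22:28800583-28800641, minus strand): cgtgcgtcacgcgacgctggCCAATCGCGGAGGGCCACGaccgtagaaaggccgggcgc
HYOU1 (chr11:119057254-119057304, minus strand): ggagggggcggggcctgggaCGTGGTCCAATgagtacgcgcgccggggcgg
HERPUD1 (chr16:56932005-56932055, plus strand): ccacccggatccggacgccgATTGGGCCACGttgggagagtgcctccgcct
SDF2L1 (chr22:21642094-21642144, plus strand): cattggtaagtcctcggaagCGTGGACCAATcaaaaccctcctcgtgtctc

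HSP90B1 and HYOU1 each hold 1 more match, and the CANX match falls in the windows of more than 1 annotated start. The 10 genes with an element had a median log2 fold change of −0.04 with shLMO2-1 and 0.04 with shLMO2-2. The 11 matched chaperone arm genes without one had medians of −0.01 and −0.05. Of the called genes, XBP1 holds ERSE, and PDIA4 has neither element in this window. ATF4 is known to bind the core of the amino acid response element with C/EBP partners (TGATGNAA, searched on both strands). This core lay in the windows of 4.46% of all genes (3.62% of all windows). It lay in those of ASNS, CHAC1 and SLC3A2 in the ATF4 arm and of HERPUD1 in the chaperone arm. A match is a run of letters and not a shown binding site. The matches of ASNS and CHAC1, in which capitals mark the core, read as follows.
ASNS (chr7:97872449-97872496, minus strand): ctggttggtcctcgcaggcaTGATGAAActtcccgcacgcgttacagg
CHAC1 (chr15:40953242-40953289, plus strand): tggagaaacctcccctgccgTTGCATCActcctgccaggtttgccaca

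HSPA5, which encodes the main reticulum chaperone BiP and is the usual readout of the unfolded protein response, did not pass the test with either hairpin. It lay on chromosome 9:125234853-125241330, minus strand (GENCODE 29, GRCh38, as all gene positions here). Its level was 378, 362 and 359 CPM in the control libraries, 397, 407 and 388 with shLMO2-1 and 368, 353 and 369 with shLMO2-2. All 3 shLMO2-1 libraries lay above the controls, by a log2 difference of 0.12 (SE 0.05, adjusted p = 0.193), while the shLMO2-2 libraries overlapped the controls at −0.01 (SE 0.05, adjusted p = 0.906). The 95% intervals of these log2 differences were 0.00 to 0.23 and −0.13 to 0.10.

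PDIA4, a protein disulfide isomerase that forms and rearranges disulfide bonds in the reticulum, was the called gene of the folding group. It lay on chromosome 7:149003062-149028641, minus strand, and its exons overlap no other gene. Its level was 206, 212 and 212 CPM in the control libraries, 249.6, 251 and 249.5 with shLMO2-1 and 239, 229.7 and 232 with shLMO2-2. All 6 hairpin libraries lay above all 3 controls. The log2 fold change was 0.25 (SE 0.05, adjusted p = 0.0128) with shLMO2-1, 0.16 (SE 0.05, adjusted p = 0.0821) with shLMO2-2 and 0.20 (SE 0.04, adjusted p = 0.0139) for the mean of both. PDIA4 therefore rose with shLMO2-1 and in the mean, and not past the edgeR test with shLMO2-2. DESeq2 called it higher with shLMO2-2 too (adjusted p = 0.0210). The call with shLMO2-1 was lost without shLMO2-1 replicate 2 (adjusted p = 0.0568) and that of the mean without control replicate 3 (0.0538).

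The 14 folding genes had a median log2 fold change of 0.00 with shLMO2-1 and 0.09 with shLMO2-2. The other disulfide isomerases of the arm, PDIA3 and PDIA6, had values of 0.13 and 0.15 and of 0.13 and 0.17, with adjusted p between 0.0893 and 0.200. DESeq2 called PDIA3 with shLMO2-2 (0.0354) and in the mean (0.0186), and PDIA6 passed in the mean without control replicate 2 (0.0480). With a replicate block both were called in the mean (0.0403 and 0.0341), and PDIA6 with shLMO2-2 (0.0447). The isomerase genes P4HB, PDIA5 and TXNDC5 belong to a further reticulum list described below. They were at −0.04 and −0.05, at 0.01 and 0.11 and at −0.07 and −0.13, and none was called with either hairpin. HSP90B1 (GRP94, the reticulum's HSP90) was at 0.12 and 0.08. The lectin chaperones that hold sugar-bearing proteins, CALR and CANX, were at −0.03 and 0.11 and at −0.06 and 0.00. HYOU1, the exchange factor of BiP, was the least variable gene of all 43, with a coefficient of variation within groups of 1.33%, and was at −0.13 and −0.09 (adjusted p = 0.119 and 0.247). DESeq2 called HYOU1 lower with shLMO2-1 (0.0348), as did edgeR with total counts (0.0434). The DNAJ co-chaperones of BiP, DNAJB9, DNAJB11 and DNAJC3, lay between −0.28 and −0.01 over both hairpins. The small reticulum proteins SDF2L1, MANF and CRELD2, which are induced in this response, were at 0.40, 0.20 and 0.15 with shLMO2-2 and at 0.15, 0.02 and −0.09 with shLMO2-1, and none was called. SDF2L1 was also 1 of the 3 genes of the arm whose interval with shLMO2-2 reached past 1.5-fold (0.06 to 0.74 on the log2 scale). With shLMO2-2 it was called without the filter on low counts (adjusted p = 0.0228) and with a replicate block (0.0245).

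The 4 degradation genes, which draw misfolded proteins out of the reticulum for destruction, gave no call in any comparison. HERPUD1, which helps assemble the ubiquitin ligase complex, was at −0.17 and 0.00. The ligase SYVN1 (HRD1) and its partner SEL1L were at −0.01 and 0.03 and at 0.13 and 0.01. EDEM1, which marks proteins for this route, was at 0.05 and 0.06, but its coefficient of variation within groups was 27.9%, the highest of the 43 genes. Its level was 42.7, 24.7 and 22.9 CPM in the control libraries, 40.1, 28.1 and 24.8 with shLMO2-1 and 37.8, 28.1 and 27.8 with shLMO2-2, so replicate 1 was the highest of its group each time, and its interval with shLMO2-2 ran from −0.48 to 0.59.

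XBP1, the factor whose RNA IRE1 splices, was called lower with shLMO2-1. It lay on chromosome 22:28794555-28800597, minus strand with no overlapping exons. Its level was 218, 228 and 202 CPM in the control libraries, 189.8, 169 and 173 with shLMO2-1 and 218, 193 and 203 with shLMO2-2. The shLMO2-1 libraries all lay below the 3 controls, while the shLMO2-2 libraries overlapped them. The log2 fold change was −0.28 (SE 0.07, adjusted p = 0.0370) with shLMO2-1, −0.08 (SE 0.07, adjusted p = 0.563) with shLMO2-2 and −0.18 (SE 0.06, adjusted p = 0.0849) for the mean. The call rests on few libraries. It was lost when shLMO2-1 replicate 2 was left out (adjusted p = 0.134), and likewise for control replicate 2 (0.100), shLMO2-1 replicate 3 (0.116), shLMO2-2 replicate 2 (0.0535) or 3 (0.0532). The same held with only the groups compared in the fit (0.0676). In the mean XBP1 was called lower with total counts (0.0461) and with a replicate block (0.0348).

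The 3 sensors had values below 0 with both hairpins, and none was called in edgeR with the filter and without a replicate block. ERN1 was at −0.13 and −0.33, ATF6 at −0.29 and −0.23, and EIF2AK3 at −0.15 and −0.17 on the log2 scale. Their smallest adjusted p against control in that fit was 0.110, for ATF6 in the mean of both hairpins, which was called without the filter (0.0426). With a replicate block ATF6 was called lower with shLMO2-1 (0.0374) and in the mean (0.0246). ERN1 was the least abundant gene of the arm per transcript length, at 4.41 TPM (the count divided by transcript length and scaled to the library) in controls. Its interval with shLMO2-2, −0.74 to 0.08, was the third that reached past 1.5-fold.

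In the ATF4 arm, ATF4 itself and the amino acid transporter SLC7A5 rose with both hairpins, while the cystathionine enzyme CTH fell with shLMO2-2. The kinases that phosphorylate eIF2 were not called: EIF2AK2, also an interferon-induced sensor of double-stranded RNA, was at −0.22 and −0.31, and EIF2AK4, the sensor of uncharged tRNA, at 0.13 and 0.04. EIF2AK2 varied widely within groups, with a coefficient of variation of 21.2%, and was called lower with shLMO2-2 without the filter (adjusted p = 0.0257).

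ATF4, on chromosome 22:39519695-39522685, plus strand, measured 784, 869 and 858 CPM in the control libraries, 949, 934 and 1045 with shLMO2-1 and 940.0, 979 and 1003 with shLMO2-2. All 6 hairpin libraries lay above all 3 controls. The log2 fold change was 0.22 (SE 0.06, adjusted p = 0.0492) with shLMO2-1, 0.22 (SE 0.06, adjusted p = 0.0496) with shLMO2-2 and 0.22 (SE 0.05, adjusted p = 0.0231) for the mean. Both single-hairpin values lie at the threshold. The shLMO2-1 call was lost without any 1 of the 9 libraries, and the shLMO2-2 call without any 1 but shLMO2-1 replicate 3, with adjusted p over all alternatives of 0.0141 to 0.161 and 0.0136 to 0.158. Both were also lost with median-of-ratios scaling (0.0529 and 0.0546), upper-quartile scaling (0.0697 and 0.0606) and only the groups compared in the fit (0.103 and 0.0753). The shLMO2-1 call was lost in limma-voom (0.0553), and the shLMO2-2 call with total counts (0.0570) or a minimum of 10 counts in every library (0.0513). The mean lost its call when control replicate 1 (0.0637) or 3 (0.0645) was left out, and also for shLMO2-2 replicate 2 (0.0543).

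The other factors of the arm did not pass. DDIT3 (CHOP), the factor tied to cell death under lasting stress, measured 8.46, 7.43 and 8.35 CPM in the control libraries, 10.01, 6.39 and 6.59 with shLMO2-1 and 10.6, 6.499 and 8.94 with shLMO2-2, with the 3 groups overlapping. Its log2 fold change was −0.07 (SE 0.21, adjusted p = 0.881) with shLMO2-1 and 0.10 (SE 0.21, adjusted p = 0.803) with shLMO2-2. At this level its intervals were wide, −0.54 to 0.40 and −0.36 to 0.56, and its exons on chromosome 12 overlap MARS and MBD6, whose reads may be mixed with its own. ATF5 was at −0.03 and −0.15, CEBPB, which encodes a partner of ATF4, at −0.01 and 0.02, and the stress protein NUPR1 at 0.01 and −0.13.

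The 4 feedback genes gave no call in edgeR with the filter on low counts and without a replicate block. TRIB3, a pseudokinase that curbs ATF4, was at 0.20 and 0.07. CHAC1, which breaks down glutathione, was at 0.13 and 0.09, and SESN2, a leucine sensor, at 0.10 and −0.05. PPP1R15A (GADD34), which brings a phosphatase to eIF2 and so ends the response, measured 92.1, 66.7 and 65.9 CPM in the control libraries, 61.3, 61.0 and 51.8 with shLMO2-1 and 65.9, 59.5 and 50.0 with shLMO2-2. Its log2 fold change of −0.37 (SE 0.14, adjusted p = 0.137) with shLMO2-1 and −0.36 (SE 0.14, adjusted p = 0.139) with shLMO2-2 did not pass that test. Without the filter it was called lower with shLMO2-1 (adjusted p = 0.00699) and shLMO2-2 (0.00898), and DESeq2 called it in the mean (0.0314). With the replicate block edgeR called it lower with shLMO2-1 (adjusted p = 0.0154), shLMO2-2 (0.0144) and in the mean (0.00525). Control replicate 1 was the highest of the 9 libraries for it.

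Serine is made in 3 steps by PHGDH, PSAT1 and PSPH, and these 3 genes had values above 0 with both hairpins. PSAT1, the aminotransferase of the second step, on chromosome 9:78297143-78330093, plus strand, measured 467, 536 and 517 CPM in the control libraries, 539.6, 551 and 582 with shLMO2-1 and 589, 581 and 652 with shLMO2-2. All 3 shLMO2-2 libraries lay well above the controls, and the lowest shLMO2-1 library lay next to control replicate 2. Its log2 fold change was 0.14 (SE 0.07, adjusted p = 0.247) with shLMO2-1, 0.26 (SE 0.07, adjusted p = 0.0384) with shLMO2-2 and 0.20 (SE 0.06, adjusted p = 0.0509) for the mean. In this fit it was called with shLMO2-2 only, and the difference between the hairpins was 0.12 (SE 0.07, adjusted p = 0.596). The shLMO2-2 call was lost without control replicate 1 (0.0799) or 3 (0.0909), shLMO2-1 replicate 1 (0.0534) or 2 (0.0655), and any shLMO2-2 library (adjusted p from 0.0715 to 0.142), and with only the groups compared (0.0780). The mean was called in DESeq2 (0.0246), limma-voom (0.049996), without the filter (0.0270) and with at least 10 counts in every library (0.0474). It was also called with a replicate block (0.0138) and without control replicate 2 (0.0454).

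PSPH, the phosphatase of the last step, on chromosome 7:56011051-56051604, minus strand, measured 374, 448 and 418 CPM in the control libraries, 479.9, 466 and 503 with shLMO2-1 and 480.2, 467 and 496 with shLMO2-2. All 6 hairpin libraries lay above the controls. Its log2 fold change was 0.22 (SE 0.07, adjusted p = 0.0693) with shLMO2-1, 0.22 (SE 0.07, adjusted p = 0.0728) with shLMO2-2 and 0.22 (SE 0.06, adjusted p = 0.0346) for the mean, which was called. That call held without control replicate 2 and was lost without any other single library, at adjusted p of 0.0550 to 0.0985. PHGDH, the first enzyme, was the most abundant of the 43 genes per transcript length, at 1233 TPM in controls. Its log2 fold change was 0.14 (SE 0.09, adjusted p = 0.370) with shLMO2-1 and 0.16 (SE 0.09, adjusted p = 0.289) with shLMO2-2. Of the mitochondrial enzymes that take one-carbon units from serine, SHMT2 was at 0.00 and 0.06, and MTHFD2 at 0.02 and −0.18. MTHFD2 was called lower with shLMO2-2 when a replicate block was fitted (0.0392). ASNS, the asparagine synthetase that is a standard ATF4 target, was at 0.17 and 0.18, and its mean of 0.17 (SE 0.05, adjusted p = 0.0540) lay just outside the threshold. The mean of ASNS was called without control replicate 2 (0.0340), in DESeq2 (0.0230) and with a replicate block (0.0249). With the block ASNS was also called with shLMO2-2 (0.0495).

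CTH (cystathionine gamma-lyase), which makes cysteine from cystathionine, fell by more than any other gene of either arm. On chromosome 1:70411218-70439851, plus strand, it measured 33.4, 37.4 and 32.2 CPM in the control libraries, 27.2, 31.6 and 25.2 with shLMO2-1 and 21.7, 16.5 and 18.1 with shLMO2-2. All shLMO2-2 libraries lay below every other library, and the shLMO2-1 libraries lay below the controls. The log2 fold change was −0.87 (SE 0.12, adjusted p = 0.00235) with shLMO2-2, a level of 0.547 times control, and −0.29 (SE 0.12, adjusted p = 0.165) with shLMO2-1. The mean was −0.58 (SE 0.10, adjusted p = 0.00538). No alternative removed the calls with shLMO2-2 or in the mean, and adjusted p ranged from 4.09e-09 to 0.0159 and from 3.78e-06 to 0.0245. CTH was the ATF4 arm gene in which the hairpins differed most, at −0.58 (SE 0.12, adjusted p = 0.0676) for shLMO2-2 minus shLMO2-1. This difference did not pass, but did without control replicate 1 (0.0422), without the filter on low counts (9.96e-04) and in DESeq2 (0.00262).

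CBS, the enzyme that feeds CTH, has an identical copy in the annotation, CBSL, and reads of the pair cannot be assigned to either. CBS was at 0.12 (SE 0.09, adjusted p = 0.456) and 0.23 (SE 0.09, adjusted p = 0.149), which passed without control replicate 2 (0.0313), and CBSL at 0.39 (SE 0.06, adjusted p = 0.00446) and 0.27 (SE 0.06, adjusted p = 0.0235). The summed counts of both, a choice made after seeing these values, measured 209, 235 and 221 CPM in controls, 270.1, 269 and 263 with shLMO2-1 and 270.1, 248 and 272 with shLMO2-2. All hairpin libraries lay above the controls. The sum rose by 0.27 (SE 0.06, adjusted p = 0.0243) and 0.25 (SE 0.06, adjusted p = 0.0331) on the log2 scale, so the pair and CTH, successive steps of one pathway, moved in opposite directions with shLMO2-2.

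SLC7A5 (LAT1), which carries large neutral amino acids such as leucine, gave the call with the smallest adjusted p of either arm. On chromosome 16:87830023-87869488, minus strand, it measured 563, 616 and 603 CPM in the control libraries, 799.9, 776 and 736 with shLMO2-1 and 778, 767 and 743 with shLMO2-2. Every hairpin library lay above every control. It rose by 0.38 (SE 0.05, adjusted p = 0.00245) with shLMO2-1 and 0.36 (SE 0.05, adjusted p = 0.00323) with shLMO2-2 on the log2 scale, and by 0.37 (SE 0.05, adjusted p = 0.00108) in the mean. No alternative removed these calls, and the adjusted p of the mean ranged from 2.89e-10 to 0.00785. An exon of the locus AC126696.2 overlaps it. SLC3A2 (4F2hc), the heavy chain that brings SLC7A5 to the cell surface, measured 364, 441 and 403 CPM in the control libraries, 359, 338 and 354 with shLMO2-1 and 378, 334 and 340.2 with shLMO2-2. It was at −0.20 (SE 0.08, adjusted p = 0.135) and −0.20 (SE 0.08, adjusted p = 0.130), and did not pass. Without control replicate 1, the lowest control, it was called lower with both hairpins (0.0307 and 0.0343). In the mean it was called without that library (0.0162) or shLMO2-2 replicate 1 (0.0461), with total counts (0.0295), without the filter (0.0391) and in DESeq2 (0.0383). The ratio of SLC7A5 to SLC3A2 CPM was 1.54, 1.40 and 1.497 in controls and 2.06 to 2.30 in the 6 hairpin libraries.

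VEGFD, a secreted growth factor of lymphatic vessels placed in the ATF4 list, rested on 0, 0 and 1 counts in the controls, 1, 0 and 0 with shLMO2-1 and 3, 0 and 0 with shLMO2-2, and was not tested. A difference was not detectable at this depth.

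**Figure D2:**
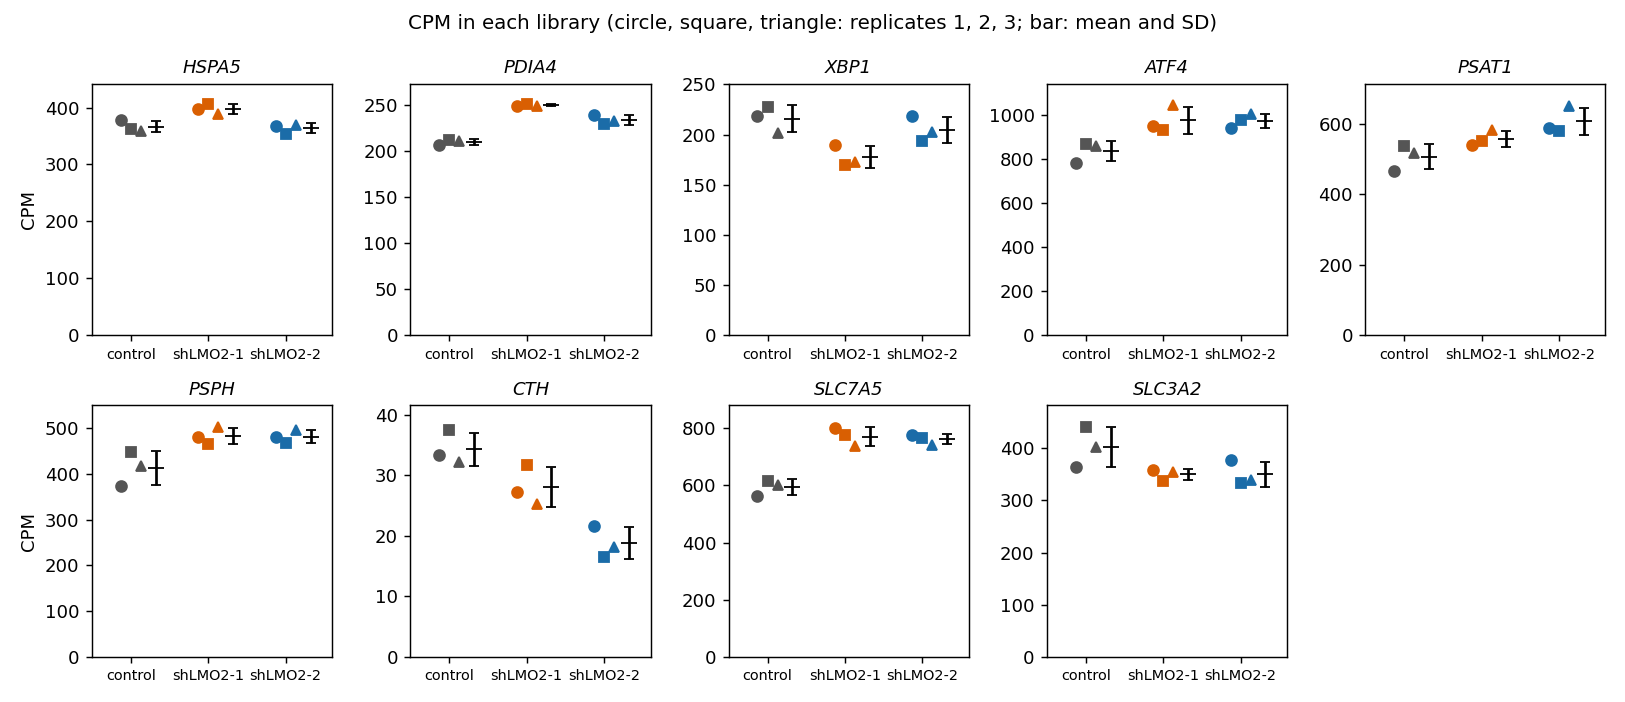
CPM (y axis, from 0) of 9 genes in the 3 control, 3 shLMO2-1 and 3 shLMO2-2 libraries. Circles, squares and triangles are replicates 1, 2 and 3, and the bar gives the group's mean and SD. SLC7A5 lies at 563 to 616 CPM in controls and at or above 736 in the hairpin libraries, and CTH is lowest in the shLMO2-2 libraries.

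Between the hairpins no gene of either arm was called, where 0.768% of all tested genes were (0.347% higher and 0.422% lower with shLMO2-2). At an unadjusted p under 0.05, 5 chaperone arm genes and 2 ATF4 arm genes passed, as did 1552 of all 14709 tested genes. DESeq2 called 0 and 1 genes of the arms, and 316 of all tested genes. The median difference, shLMO2-2 minus shLMO2-1, was 0.04 in the chaperone arm and 0.00 in the ATF4 arm on the log2 scale. The interval lay within 1.5-fold for 20 of 22 and 19 of 21 genes. For XBP1, called with shLMO2-1 alone, the difference was 0.21 (SE 0.07, adjusted p = 0.316) with an interval of 0.05 to 0.37, and for PDIA4 it was −0.10 (SE 0.05, adjusted p = 0.565) with −0.21 to 0.01. A p that misses the threshold does not show that the hairpins acted alike.

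Some of the spread within groups followed the replicate number rather than the group. Replicate 1 was the highest library of all 3 groups for 7 of 43 genes (16.3%, against 13.3% of all tested genes): EDEM1, ERN1, EIF2AK2, EIF2AK4, DDIT3, PPP1R15A and MTHFD2. It was the lowest of all 3 for 7 (16.3%, against 13.1%): CALR, CANX, PDIA6, SDF2L1, ATF5, CEBPB and ASNS. The libraries also differed by transcript length. In control replicate 1 the top quartile by length of all tested genes lay 0.11 above the group mean by median on the log2 scale, and the bottom quartile was at −0.10. In control replicate 2 the values were −0.09 and 0.08. The median of the ATF4 arm lay at −0.11 in control replicate 1 against 0.08 and 0.03 in the other controls, as a log2 difference from the control mean. The part of these library differences in the calls above was not tested.

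**Figure D3:**
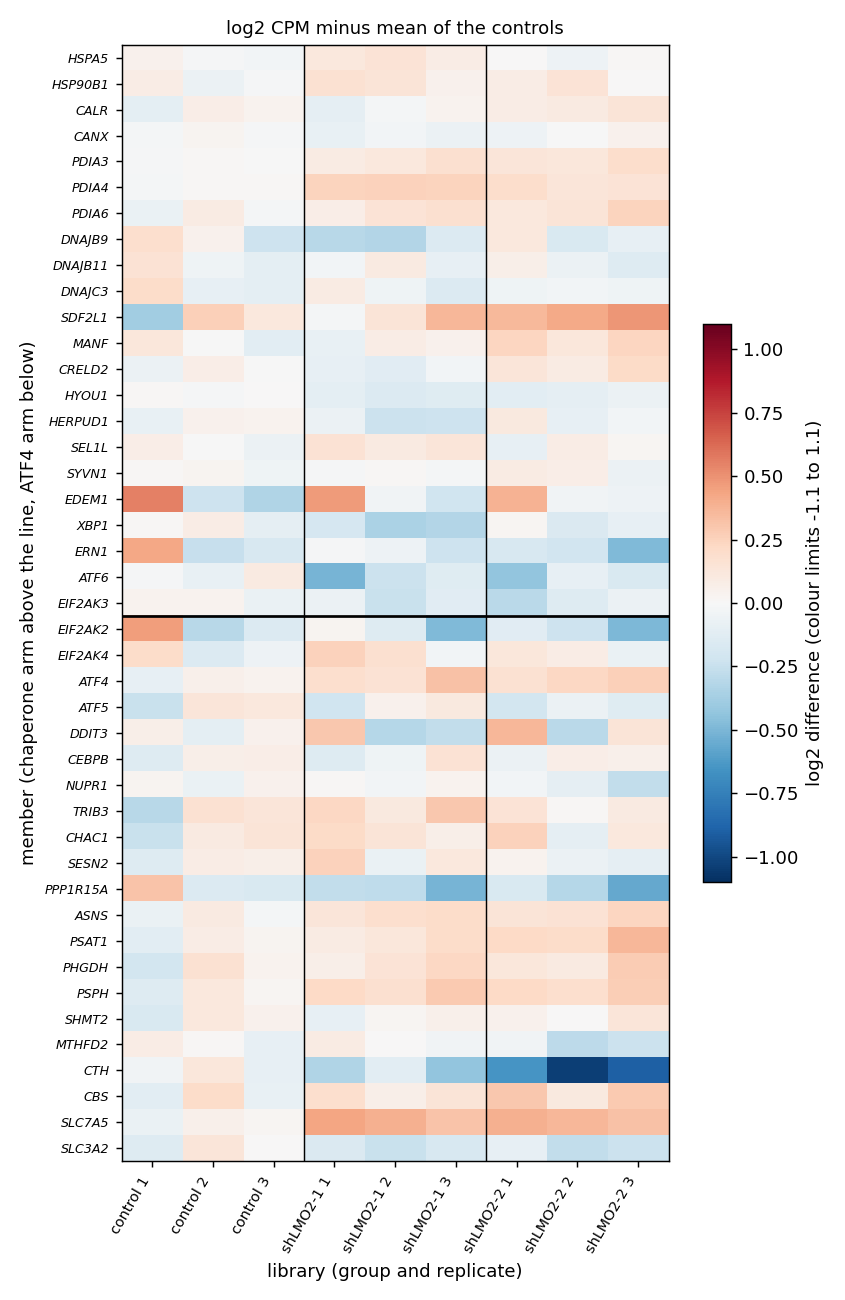
Log2 CPM of each tested gene (rows, chaperone arm above the thick line, ATF4 arm below) minus the mean of the 3 controls, for each of the 9 libraries (columns). Red is higher and blue lower than the control mean, with colour limits at −1.1 and 1.1. SLC7A5 is red in all 6 hairpin libraries, CTH is darkest in the shLMO2-2 libraries, and EDEM1 is red in replicate 1 of every group.

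Per transcript length, the levels in controls spanned from 4.41 TPM for ERN1 to 1233 TPM for PHGDH. ATF4 (833 TPM), CALR (770.1), CANX (764) and HSP90B1 (677) followed PHGDH. The serine enzymes PSAT1 (535) and PSPH (364) and the transporters SLC3A2 (375) and SLC7A5 (265) lay above BiP's gene HSPA5 (179), while DDIT3 lay at 16.4 TPM. These TPM values rest on a median transcript length per gene and order genes only roughly.

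Other genes of the same pathways were counted from 4 further lists, which held 55 reticulum genes, 43 further genes tied to ATF4, 17 genes of eIF2 control and 19 heat shock genes. Of the last, HSPD1, HSPE1 and HSPA9 encode mitochondrial chaperones and the others act mainly in the cytosol and nucleus. In the mean of both hairpins, 6 higher and 2 lower of 53 tested reticulum genes were called, 5 higher and 5 lower of 42 ATF4-linked genes, 0 of 17 eIF2 genes and 0 higher and 7 lower of 19 heat shock genes. Over all tested genes, 6.47% were called higher and 5.93% lower in this comparison. Scaling by total counts turned that split, to 793 genes higher and 1284 lower in place of 951 and 872. Of the eIF2 genes 5 passed an unadjusted p under 0.05, as did 4121 of all 14709 tested genes. The lists' median log2 fold changes were 0.03, −0.03, −0.01 and −0.10. By single hairpin, the reticulum list had 3 higher and 1 lower with shLMO2-1 and 5 higher and 0 lower with shLMO2-2, the ATF4-linked list 4 higher and 5 lower and 3 higher and 4 lower, and the heat shock list 0 higher and 4 lower and 0 higher and 3 lower. Without 1 library the counts in the mean fell to 5 reticulum genes (without any 1 control library, shLMO2-1 replicate 3 or shLMO2-2 replicate 2 or 3) and to 6 ATF4-linked genes (without control replicate 3). The heat shock count fell to 4 without control replicate 2 and to 3 without control replicate 3.

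ATF3, a stress factor that ATF4 can switch on and that has other inducers as well, fell most among the called ATF4-linked genes. FGF21 and INHBE were lower still with shLMO2-2, at −1.44 and −1.21, and did not pass (adjusted p = 0.178 and 0.132). ATF3 measured 73.0, 65.1 and 68.7 CPM in the control libraries, 31.9, 32.8 and 31.4 with shLMO2-1 and 29.6, 33.1 and 32.8 with shLMO2-2. The hairpin libraries lay far below the controls, at −1.11 (SE 0.08, adjusted p = 3.33e-05) with shLMO2-1 and −1.11 (SE 0.08, adjusted p = 2.43e-05) with shLMO2-2. GADD45A, a growth arrest gene, and FAM129A (NIBAN1) also fell in the mean, at −0.52 (SE 0.07, adjusted p = 0.00120) and −0.48 (SE 0.08, adjusted p = 0.00280). WARS, the cytosolic tryptophanyl-tRNA synthetase, rose by 0.39 (SE 0.05, adjusted p = 9.85e-04) and measured 178 ± 7.36 CPM in controls, 244 ± 4.98 with shLMO2-1 and 221 ± 6.96 with shLMO2-2 (SD, n = 3). DDIT4 had the highest value of this list in the mean, at 0.52 (adjusted p = 0.0131), and was called higher with shLMO2-1 (0.0395) and shLMO2-2 (0.0214). The ATF4-linked list thus held genes called in either direction, as the arm itself did with SLC7A5 and CTH.

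In the reticulum list, SEC61G, a subunit of the channel through which proteins enter the reticulum, rose from 1869 ± 141 CPM in controls to 2606 ± 172 with shLMO2-1 and 2931 ± 92.0 with shLMO2-2 (SD, n = 3), at 0.56 (SE 0.06, adjusted p = 2.45e-04) for the mean. SPCS3, a subunit of the signal peptidase, and ERO1A, an oxidase that recharges the disulfide isomerases, rose in the mean by 0.26 (SE 0.05, adjusted p = 0.00802) and 0.33 (SE 0.07, adjusted p = 0.0100). The related ERO1B was at −0.28 in the mean and was not called (adjusted p = 0.0945). SSR1, a subunit of the translocon-associated protein complex, fell with shLMO2-1, from 388, 395 and 383 CPM to 277, 277 and 273, at −0.50 (SE 0.05, adjusted p = 3.77e-04). With shLMO2-2 it measured 363, 376 and 395 CPM, overlapping the controls, at −0.04 (SE 0.05, adjusted p = 0.673).

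The 7 called heat shock genes were lower, 6 of them cytosolic and 1, HSPD1, mitochondrial (−0.18 in the mean, adjusted p = 0.0172). HSP90AB1, the constitutive cytosolic HSP90, fell from 1809 ± 34.8 CPM to 1409 ± 6.03 with shLMO2-1 and 1456 ± 44.8 with shLMO2-2 (SD, n = 3), at −0.36 (SE 0.04, adjusted p = 8.70e-04) and −0.31 (SE 0.04, adjusted p = 0.00227). In the mean, HSPH1 (an HSP110) was at −0.40 (SE 0.08, adjusted p = 0.00933), the co-chaperone DNAJB4 at −0.42 (SE 0.09, adjusted p = 0.0101) and the small heat shock protein CRYAB at −0.40 (SE 0.08, adjusted p = 0.0112). The call of DNAJB4 was lost without control replicate 3 (0.0515). HSP90B1, the reticulum's counterpart of HSP90AB1, was at 0.12 and 0.08 and was not called.

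**Figure D4:**
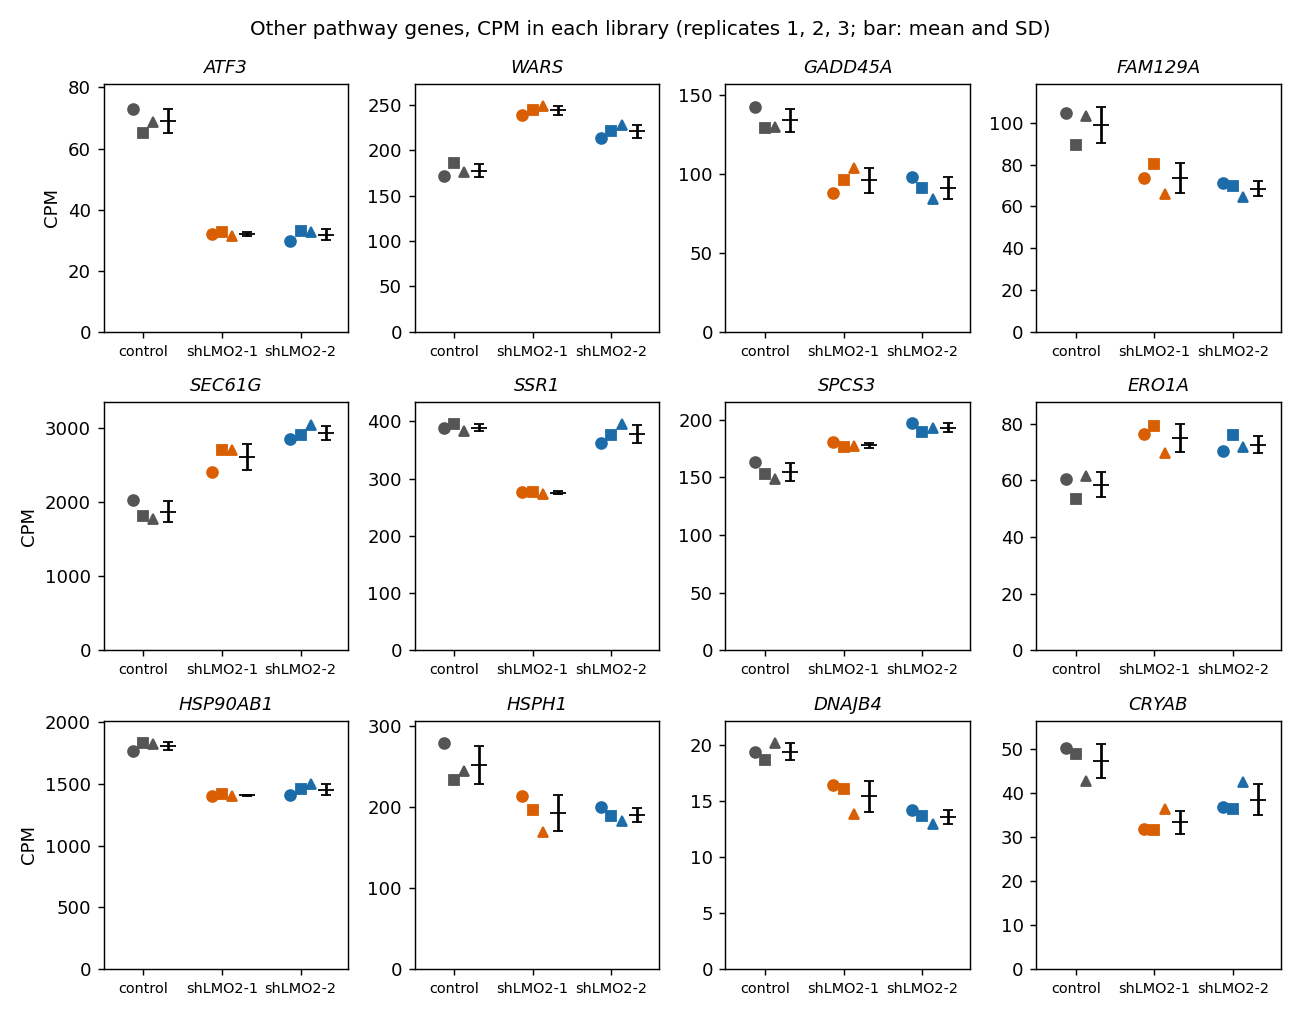
CPM (y axis, from 0) of 12 further genes of the pathways in the 3 control, 3 shLMO2-1 and 3 shLMO2-2 libraries, with circles, squares and triangles for replicates 1, 2 and 3 and a bar for mean and SD. The top row is linked to ATF4, the middle row acts in the reticulum and the bottom row is the heat shock list. ATF3 lies at 69.0 CPM in controls and at 32.1 and 31.9 with the hairpins, and SSR1 is low with shLMO2-1 alone.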

How the data were processed

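Polyadenylated RNA of 9 libraries was sequenced, per the labels' protocols (NEBNext Ultra II kit). The values are estimated counts per gene symbol, as the authors deposited them. The submitters' processing notes name Salmon 0.12, DESeq2 1.22.2 and GRCh38.p12. The use of strand is not given in the sources used here, so 20 of the 44 genes, whose exons overlap another gene's in GENCODE 29, could share reads with it. Libraries were grouped by the plasmid in their labels, and none was left out.

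Counts were rounded. edgeR 4.0.16 (R 4.3.3) was run on all 9 libraries with TMM scaling, filterByExpr (minimum count 10, minimum total 15) and a factor of 3 groups. This kept 14708 genes, and LMO2 was added back. P-values come from the quasi-likelihood test, two-sided, with Benjamini-Hochberg adjustment over the 14709 genes. SE is the log2 fold change over the square root of F, and intervals (95%) are from the t distribution and are not adjusted for the number of genes. Self-tests on simulated counts were run.

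The 44 genes and all lists were chosen with earlier results of these data known. Named with each library's value were every called gene, HSPA5, XBP1, ATF4 and DDIT3, and up to 4 called genes of each further list, by smallest p for both hairpins together. EDEM1, PPP1R15A, SLC3A2, FGF21, INHBE and HSPD1 were added after their values were seen. Promoter sequences are from RefSeq (GRCh38.p14). Alternatives were 3 other scalings, 2 filters, DESeq2 1.42.0, limma-voom (limma 3.58.1), the groups compared alone, a replicate block, each library left out, and CBS summed with CBSL, the last chosen after seeing the data. Depth, 15494486 to 23069456 counts, limits genes of few counts such as DDIT3 and VEGFD.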

Additional observations from a re-analysis of the deposited data

Results flagged for a closer look

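SSR1, a reticulum gene of the further lists, was the 1 gene among those named here for which the hairpins differed past the test. Its log2 difference, shLMO2-2 minus shLMO2-1, was 0.46 (SE 0.05, adjusted p = 0.00179) in edgeR. It measured 389 ± 6.15 CPM in controls, 276 ± 2.61 with shLMO2-1 and 378 ± 15.9 with shLMO2-2 (SD, n = 3). All 3 shLMO2-1 libraries lay below the other 6. The adjusted p of the difference over all alternatives was 5.97e-14 to 0.0194.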

How the results depend on the processing

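Among the called genes of the 2 arms and the 12 named genes of the further lists, no direction reversed under the alternatives run. Other called genes, such as CBSL and the neighbours of PSPH, were not followed through them. The calls of CTH (shLMO2-2 and the mean) and SLC7A5 (both hairpins and the mean) held under all of these alternatives, while those of ATF4, PSAT1, PSPH, PDIA4 and XBP1 depended on single libraries. Chaperone arm counts, 2, 0 and 1 for shLMO2-1, shLMO2-2 and the mean, became as follows. The shLMO2-1 count was 1 with only the groups compared, and 3 with total counts and in DESeq2. The shLMO2-2 count was 1 without the filter on low counts and 2 in DESeq2. The mean count was 3 with total counts, 2 without the filter and 3 in DESeq2. ATF4 arm counts, 2, 4 and 4, became 1 for shLMO2-1 with median-of-ratios or upper-quartile scaling, limma-voom or only the groups compared, and 3 without the filter, in DESeq2 and with CBS and CBSL summed. The shLMO2-2 count became 7 without the filter and 2 with only the groups compared, and the mean count 8 without the filter and in DESeq2. Between the hairpins 1 gene, CTH, was called without the filter and in DESeq2. Leaving out 1 library at a time gave 0 to 2, 0 to 0, 0 to 2 and 0 to 0 chaperone arm genes for shLMO2-1, shLMO2-2, the mean and the difference of the hairpins, and 1 to 2, 2 to 5, 2 to 7 and 0 to 1 ATF4 arm genes. Calls over all tested genes moved as well, from 1239, 1320 and 1823 to 1749, 1837 and 2373 in DESeq2. They were 1342, 1401 and 2077 with total counts, and 1680, 1895 and 2376 of 26128 genes without the filter. With only the groups compared they were 695 and 776 for the single hairpins. For shLMO2-1 they were 1126 to 1237 with the other 2 scalings and limma-voom. Between the hairpins, 113 became 378 without the filter and 316 in DESeq2. The cause of these shifts was not tested. With total counts HSPA5 moved to 0.08, −0.06 and 0.01 for shLMO2-1, shLMO2-2 and the mean, and 2 eIF2 genes were called in the mean. The fit with only the groups compared was not run for the mean.

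Replicate numbers are shared between groups, and the labels do not say whether they pair the libraries. Same-numbered libraries correlated in their deviations at 0.33 to 0.39 for number 1, 0.21 to 0.30 for number 3 and −0.10 to 0.05 for number 2. Libraries of different groups numbered 1 and 3 correlated at −0.41 to −0.24. Control replicate 2 correlated best with libraries numbered 3 (0.26 and 0.27). Whether same-numbered libraries share a batch was not tested. With the replicate block the chaperone arm counts were 3, 2 and 5 for shLMO2-1, shLMO2-2 and the mean, and the ATF4 arm counts 4, 8 and 8. In the chaperone arm, PDIA4, XBP1 and ATF6 were called with shLMO2-1 and in the mean. PDIA6 was called with shLMO2-2 and in the mean, SDF2L1 with shLMO2-2 and PDIA3 in the mean. In the ATF4 arm, ATF4, SLC7A5, PSPH and PPP1R15A were called in each of these. ASNS, CTH and PSAT1 were called with shLMO2-2 and in the mean, MTHFD2 with shLMO2-2 and SLC3A2 in the mean. CTH was the 1 gene of the arms called between the hairpins. Over all 14709 tested genes the block gave 2214, 2377 and 3024 calls, and 257 between the hairpins. Without it these were 1239, 1320, 1823 and 113. Depth limits genes of few counts, and 3 libraries a group limit every test.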

Other observations

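PSPH lies in a stretch of chromosome 7 where other genes were also called. Of the 19 tested genes that start within 1.5 Mb of PSPH, a window chosen after its values were seen, 5 were called higher and 1 lower in the mean of both hairpins, against 6.47% and 5.93% of all tested genes. The higher genes were SEC61G (0.56, adjusted p = 2.45e-04), VOPP1 (0.49, 0.00120), EGFR (0.29, 0.0344), LANCL2 (0.29, 0.0163) and SUMF2 (0.29, 0.0240), on the log2 scale. The lower one was PSPHP1, a pseudogene of PSPH (−0.71, 0.0433). EGFR measured 5471 ± 743 CPM in controls, 7507 ± 435 with shLMO2-1 and 5985 ± 469 with shLMO2-2 (SD, n = 3). CCT6A and MRPS17, in the same window, were at −0.05 and −0.04 and were not called.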
